A study of Homo sapiens with 24 samples.

Results

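The nuclear genes that encode subunits of the respiratory chain were examined in cells labelled SH-SY5Y, a human neuroblastoma line, in which the circular RNA ciRS-7 (CDR1as) had been targeted for depletion. Genes were taken by name: NDUFA, NDUFB, NDUFC, NDUFS or NDUFV with a number for complex I, UQCR for complex III, COX4 to COX8 for complex IV and ATP5 for complex V, with processed pseudogenes that end in P and a number left out. This gave 82 of the 60658 genes counted, of which 37 carried complex I names, 9 complex III names, 17 complex IV names and 19 complex V names. A minimum of 10 counts in 3 or more of the 24 libraries was met by 76 genes, and 6 (COX4I2, COX6A2, COX7A1, COX7B2, COX8C and ATP5L2) did not meet it. The pattern also takes names that are no subunit of the named complex: ATP5S and ATP5SL are now called DMAC2L and DMAC2, ATP5J2LP is a pseudogene of ATP5J2, COX7A2L is a supercomplex factor, and NDUFA4 is now seen as a subunit of complex IV. They are kept here under the complex of their name.

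There were 4 knockdown setups, each with 3 libraries of ciRS-7 knockdown (KD) and 3 of its own non-targeting control (NTC), all of polyadenylated RNA harvested 48 h after transfection. For agoshRNA, the vector makes a hairpin that is processed by Argonaute. For gRNA and pre-gRNA, KD and NTC cells alike received a plasmid for CasRx, an RNA-cutting enzyme, fused to GFP, along with a plasmid that expresses the guide under the label gRNA or pre-gRNA. For syn-gRNA, a chemically made guide was used, and the labels do not describe its delivery. The cells were transiently transfected, with no selection named, and nothing states that the libraries of a group came from separate cultures, so p-values measure only the spread between these libraries. Libraries are named by setup, arm and the letter in the column name, and values for the 4 setups are listed in the order agoshRNA, gRNA, pre-gRNA, syn-gRNA unless named. In these bulk samples, fewer cells of a type and less RNA per cell cannot be told apart.

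Totals ran from 10994974 to 16233777 counts. Linear transcripts of the targeted locus had 16 to 132 counts of the host gene LINC00632, 0 to 26 of CDR1 and 0 to 16 of CDR1-AS per library, and the circle itself is not counted in these files. The marker genes did not match the label fully. Of 10 noradrenergic neuroblastoma markers, 5 had a mean under 1 count per 1000000 counts of the library (CPM), namely TH, DBH, STMN2, ELAVL4 and PHOX2A, and 4 were above 10 CPM (GATA2, TBX2, HAND1 and CHRNA3). Of 5 kidney-lineage markers, 4 were above 10 CPM, among them HOXA9 at 98.2 and HOXA10 at 85.1 CPM, and PAX8 was under 1. The summed level ran from 65.8 to 142 CPM for the former list and from 126 to 327 CPM for the latter. The cells are therefore called by their label only.

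The respiratory chain passes electrons from complex I (NADH dehydrogenase) and complex II (succinate dehydrogenase) through complex III (the cytochrome bc1 complex) to complex IV (cytochrome c oxidase), which reduces oxygen. Complexes I, III and IV pump protons across the inner mitochondrial membrane, and complex V (ATP synthase) uses the return flow to make ATP. Some subunits are encoded by mitochondrial DNA and the others by nuclear genes. The promoters of these nuclear genes are known for sites of NRF1, of ETS factors such as GABPA, and of YY1. Several complex IV subunits have a second gene that is used in heart, skeletal muscle, lung or testis.

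Short promoter stretches are shown because these genes are known for shared promoter sites. Whether such sites bear on how their transcripts moved across libraries was not tested. RefSeq windows of 300 bases (250 before to 50 after the start site) matched 64 of the 82 genes, in 77 windows, and were searched on both strands. The capitals mark the match, each line is written 5′ to 3′ on the gene's strand, and positions are those of GRCh38.p14. UQCRC1 carries the YY1 match at chr3:48609603-48609632 (minus strand), NDUFS1, NDUFA13 and COX8A the ETS match at chr2:206159584-206159613 (minus), chr19:19516204-19516233 (plus) and chr11:63974590-63974619 (plus), and ATP5C1 and NDUFA8 the NRF1 match at chr10:7788145-7788174 (plus) and chr9:122159764-122159793 (minus).
UQCRC1: tgcagctggAAGATGGCGGCgtccgtggtc
NDUFS1: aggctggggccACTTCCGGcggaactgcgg
NDUFA13: tccgcccgggaCCGGAAGTgtgggatactg
COX8A: ccagctccagaACTTCCGGccagcgcagcc
ATP5C1: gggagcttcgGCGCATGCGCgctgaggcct
NDUFA8: gttgccggatGCGCATGCGCaggcgccgtg
The ETS octamer CCGGAAGT, or ACTTCCGG on the other strand, was found in 10 of the 77 windows (13.0%) against 4.14% of all 35116 windows. Its 10 genes came from each complex: NDUFS1 and NDUFA13 of complex I, UQCRH, UQCRQ and UQCR11 of complex III, COX5B and COX8A of complex IV, and ATP5A1, ATP5H and ATP5J of complex V. The NRF1 palindrome, the capitals of the ATP5C1 line, was found in 3 windows (3.90%, against 1.24% of all), those of ATP5C1, NDUFA8 and NDUFB4. The YY1 sequence, the capitals of the UQCRC1 line or their reverse complement, was found in 3 windows (3.90%, against 0.849%), those of UQCRC1, NDUFS4 and NDUFA9, each after the start site. The TATA box TATAAA, or TTTATA, was in 7 windows (9.09%, against 11.5%). No match of one motif overlapped a match of another. A match is a stretch of letters, not a shown binding site, and no test was made of these shares.

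Levels were compared between genes as CPM per kilobase of annotated exon. ATP5B (hg19 chromosome 12, 57031959 to 57039852, minus strand), the catalytic beta subunit of ATP synthase, was the highest of all at 439.5 ± 101 (SD, n = 24 libraries). COX8A of complex IV followed at 326 ± 86.1, NDUFS5 of complex I at 218 ± 21.8, COX6A1 of complex IV at 209 ± 42.2 and UQCRH, the hinge protein of complex III, at 196 ± 26.0. The SDs of the last 3 overlap one another. The lowest of complex I were NDUFA9, an accessory subunit, at 5.80 ± 1.01, NDUFA5 at 6.26 ± 2.07 and NDUFS1, the large iron-sulphur subunit of complex I, at 7.69 ± 2.59. Exon lengths in the tables join all annotated transcripts (12268 bases for NDUFS1), so values per length are low for genes with many transcripts. UQCRHL, an intronless copy of UQCRH, stood at 4.49 ± 0.567. Lower still among the genes past the minimum were ATP5S at 1.48 ± 0.376, ATP5J2LP at 1.13 ± 1.23 and COX6B2 at 0.383 ± 0.159. The count ratio of UQCRH to UQCRHL lay between 25 and 33.5 in all 24 libraries, and reads of such near-identical copies may have been split between them.

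The second genes of complex IV were at or near 0 counts. COX6A2, the heart and muscle form of subunit 6A, had 0 counts in all 24 libraries, while COX6A1, the widely used form, had 94495. Set against a floor of 3 counts over the 336251325 counts of the series, COX6A1 was at least 12679-fold higher per length. COX4I2, the lung form of subunit 4, had 2 counts in all against 102253 of COX4I1, and COX7B2 had 1 against 66584 of COX7B. COX7A1, the heart and muscle form of subunit 7A, had 26 counts against 53563 of COX7A2. COX8C had 49 against 55688 of COX8A. COX6B2, the testis form of subunit 6B, was the exception with 6 to 40 counts in every library, a share of 0.458 to 2.61% of the counts of COX6B1 and COX6B2 together. In complex V, ATP5L2 had 10 counts in all against 75661 of ATP5L. The floor covers counting error only.

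ATP synthase subunit c, the ring that turns in the membrane, is made from 3 genes that give the same mature protein. All 3 were in use. Per length, ATP5G2 gave a median of 65.2% of their summed level (range 59.8 to 72.7%), ATP5G3 gave 20.9% (17.7 to 27.6%) and ATP5G1 gave 13.0% (9.69 to 16.2%). The ranges did not overlap between the 3 genes, so their order was the same in each of the 24 libraries.

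The first question was whether depletion of ciRS-7 changed these genes. DESeq2 called none of the 75, 75, 75 and 76 genes tested in the 4 setups (Benjamini-Hochberg adjusted p under 0.05). None reached an unadjusted p under 0.05 either. Among all genes tested the called share was 0.0% in each setup, and the share with an unadjusted p under 0.05 was 0.0%, 0.0925%, 0.0107% and 0.297%, so neither count sets the respiratory chain genes apart. edgeR also called 0 in each setup. Few genes had KD and NTC ranges of CPM that did not overlap. All 3 KD libraries lay below all 3 NTC libraries for NDUFS5 in agoshRNA (0.741% of all genes) and for NDUFA12 in syn-gRNA (2.23% of all genes), and above them for NDUFA12 in gRNA (0.474% of all genes), so NDUFA12, an accessory subunit of complex I, went opposite ways in those 2 setups. It stood at 43.6, 48.4 and 44.02 CPM in gRNA KD and 40.9, 41.2 and 37.1 CPM in gRNA NTC, and at 40.7, 39.9 and 40.1 CPM in syn-gRNA KD and 41.2, 42.5 and 48.5 CPM in syn-gRNA NTC. In the other directions there was 0, where 0.129% (agoshRNA, above), 1.83% (gRNA, below), 0.524% and 0.604% (pre-gRNA, above and below) and 2.65% (syn-gRNA, above) of all genes did so. In the authors' deposited tables, 0 of the 81 genes with an adjusted p fell under 0.05 in each setup, and their smallest unadjusted p was 0.0634.

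In the gRNA setup most values lay above 0, with 71 of 75 genes higher in KD and a median log2 fold change of 0.26 (all genes 0.02). Complex IV had a median of 0.30 with 12 of 12 genes above 0, complex I 0.23 with 35 of 37, complex V 0.19 with 16 of 17 and complex III 0.17 with 8 of 9. The 4 exceptions included NDUFS1 at -0.19 and UQCRC2 at -0.06. The median standard error was 0.38, larger than the median itself. Without the library gRNA KD A, the median over the genes was 0.03, and without gRNA KD C it was 0.40. The library gRNA KD A had the third highest share of its counts in these genes, 1.33%, and the strongest positive trend with GC content of all 24. With the trend of the fold changes over GC content removed, the gRNA median was 0.22.

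NDUFA13, an accessory subunit that is also known as GRIM-19, was the gene with the smallest unadjusted p of those higher in KD in both the agoshRNA and gRNA setups. In gRNA KD it stood at 176, 108 and 82.5 CPM and in NTC at 113, 109 and 71.3 CPM (letters A, B and C). The groups overlapped, with 1 KD library far above the others. The log2 fold change was 0.45 (95% interval -0.38 to 1.28, adjusted p = 1 in DESeq2). In agoshRNA KD it stood at 147, 86.2 and 138 CPM and in NTC at 122, 97.5 and 101 CPM. Again the groups overlapped, and the log2 fold change was 0.24 (95% interval -0.42 to 0.89, adjusted p = 1 in DESeq2).

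In the agoshRNA setup 43 of 75 genes were higher in KD, with a median of 0.04 (all genes 0.06). The median was -0.03 without NTC C and 0.09 without NTC B. Complex IV had the highest median, 0.10, and complex III the lowest, -0.04. COX7C, a small complex IV subunit, was the gene with the smallest p of those lower in KD. It stood at 238, 319 and 286 CPM in KD and 297, 367 and 329 CPM in NTC, lower in KD within each letter although the groups overlapped. The log2 fold change was -0.20 (95% interval -0.93 to 0.52, adjusted p = 1 in DESeq2).

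In the pre-gRNA setup the values lay mostly below 0, with 10 of 75 genes higher in KD and a median of -0.12 (all genes 0.01). No complex IV gene was above 0 (0 of 12, median -0.20). The medians of complexes I, V and III were -0.10, -0.09 and -0.05. COX7C had the smallest p of those lower, with 245, 238 and 237 CPM in KD and 257, 340 and 233 CPM in NTC. Only the NTC library B stood apart from the other 5. The log2 fold change was -0.28 (95% interval -1.07 to 0.52, adjusted p = 1 in DESeq2) and it was 0.09 without that library. The median over all 75 genes likewise went from -0.12 to 0.24 without pre-gRNA NTC B and to -0.47 without pre-gRNA KD B. These are the pair of libraries with the highest shares of counts in respiratory chain genes, 1.37% in KD B and 1.46% in NTC B.

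In the syn-gRNA setup, whose libraries varied least, 19 of 76 genes were higher in KD and the median was -0.08 (all genes 0.00), with a median standard error of 0.16. Without NTC A the median was -0.18, and without NTC C it was 0.0064. The medians were -0.10 in complexes III and IV, -0.09 in complex I and -0.03 in complex V. ATP5D, the delta subunit of ATP synthase, had the smallest p of those lower in KD. It stood at 63.0, 79.8 and 63.0 CPM in KD and 77.3, 84.1 and 87.0 CPM in NTC. Each KD library was below the NTC library of its letter, but KD B was above NTC A. The log2 fold change was -0.28 (95% interval -0.60 to 0.04, adjusted p = 1 in DESeq2).

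**Figure D1:**
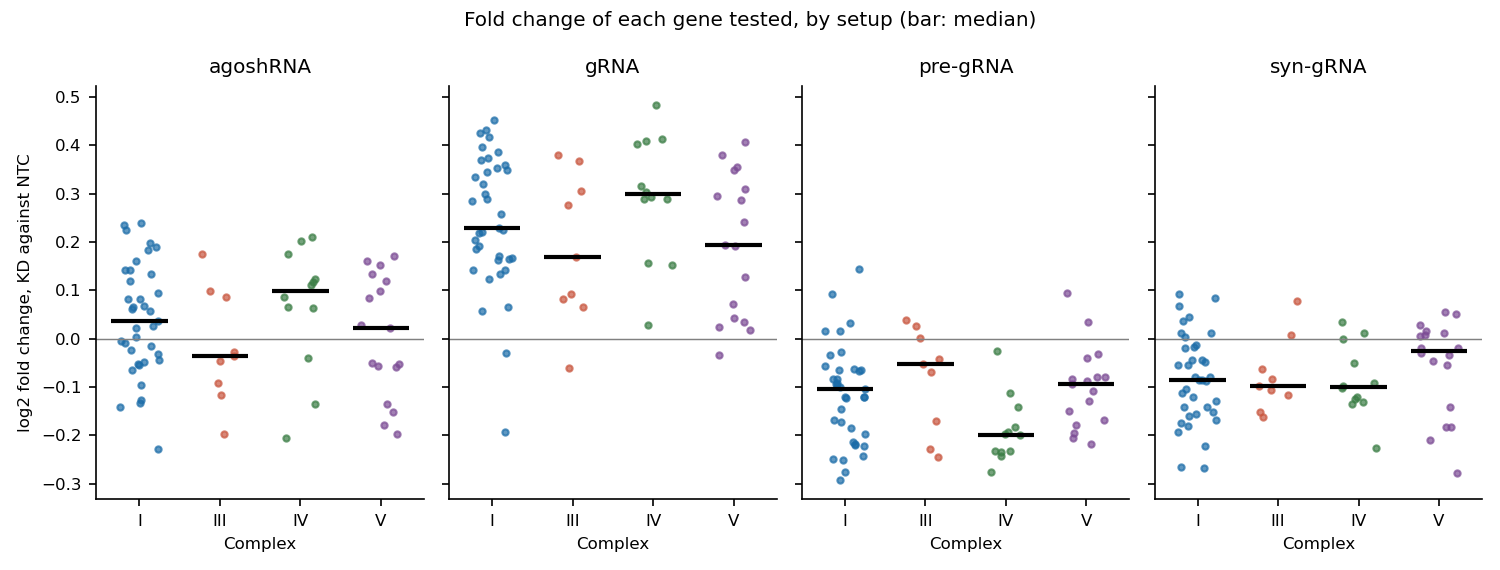
Log2 fold change of KD against NTC for each gene tested, by complex and setup; bars are medians. Most points lie above 0 in the gRNA setup (71 of 75) and below 0 in the pre-gRNA setup (65 of 75), and no gene was called in any setup.

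Some of the core subunits are given with their values in each setup. ATP5B had log2 fold changes of 0.13, 0.29, -0.22 and 0.01 in the 4 setups, with standard errors of 0.35, 0.38, 0.51 and 0.16. ATP5A1, the alpha subunit that surrounds the rotor with ATP5B, had -0.05, 0.04, -0.13 and 0.05. COX4I1, the largest nuclear subunit of complex IV, had 0.17, 0.30, -0.20 and -0.10. For UQCRFS1, the Rieske iron-sulphur protein of complex III, the values were -0.04, 0.09, 0.04 and -0.08. For NDUFV1 of complex I they were 0.12, 0.32, -0.20 and -0.05. None of these exceeded its standard error. COX5B of complex IV, at 0.11, 0.41, -0.20 and -0.14, did so narrowly in gRNA (0.412, standard error 0.410). In the syn-gRNA setup the 95% interval of ATP5B ran from -0.30 to 0.32 and that of UQCRC1 from -0.29 to 0.30, against -0.54 to 0.81 for ATP5B in the agoshRNA setup.

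KD and NTC libraries of the same setup and letter deviated together, to a varying degree. Over the respiratory chain genes, the deviation of a KD library from its group mean correlated with that of the NTC library of its letter with r between 0.13 and 0.97 in all 12 pairs, while pairs of unequal letters lay between -0.93 and 0.56. The same letter was not always closest: gRNA KD B had 0.13 with NTC B and 0.30 with NTC C. Likewise, pre-gRNA KD A had 0.25 with NTC A and 0.56 with NTC C. Deviations from a group mean sum to 0, so low values for unequal letters are in part built in. With the letter as a term, DESeq2 again called 0 of these genes in each setup. At an unadjusted p under 0.05 it gave 0, 0, 17 and 3 of them, where 0.59%, 0.615%, 5.4% and 1.3% of all genes passed. The 17 genes of the pre-gRNA setup were all lower in KD, which is 22.7% of the 75 tested. They included UQCRC1 and UQCRQ of complex III, COX4I1, COX5B, COX7A2 and COX8A of complex IV, ATP5B and ATP5D of complex V and 9 complex I genes. NDUFS7, a core iron-sulphur subunit, had the smallest p among them, with a log2 fold change of -0.29 (SE 0.11, adjusted p = 0.831 in DESeq2). The 3 genes of the syn-gRNA setup, COX8A, ATP5D and NDUFA3, were lower in KD too. The share of all genes called in this fit was 0.0% in the first 3 setups and 0.0054% in syn-gRNA.

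The same can be read within letters. In the pre-gRNA setup 30 of 75 genes (40.0%) had less in KD than in its same-letter NTC partner in 3 of 3 letters, against 16.9% of all genes, and 3 had more, against 19.5%. The median difference was -0.13, -0.10 and -0.09 in letters A, B and C. In the gRNA setup 25 of 75 (33.3%) were higher in 3 of 3 letters, against 7.04% of all genes, and 1 was lower, against 15.8%, with median differences of 0.25, 0.01 and 0.07. The agoshRNA setup had 16 genes (21.3%) lower and 0 higher in 3 of 3 letters, against 11.3% and 10.5% of all genes. Its letters went different ways, with median differences of 0.03, -0.19 and 0.14 and 43, 3 and 57 of 75 genes higher in A, B and C. Letter B alone thus left at most 3 genes that could be higher in every letter. In the syn-gRNA setup 13 of 76 (17.1%) were lower, against 11.3%, and 4 were higher, against 12.9%, with median differences of 0.03, -0.04 and -0.21. The genes are not replicates of one another, and no test was made of these shares.

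The KD effects of the 4 setups were compared in 1 model of all 24 libraries. DESeq2 called none of the 76 genes tested in any of the 6 pairs of setups (0.0% of all genes in each). The widest gap was between gRNA and pre-gRNA, where the difference of the KD effects had a median of 0.36 with 70 of 76 genes above 0, and a median standard error of 0.51. Complex IV had a median of 0.52 with 12 of 12 above 0. At an unadjusted p under 0.05 there was 1 gene, the pseudogene ATP5J2LP, between agoshRNA and gRNA (0.149% of all genes). There was 0 for agoshRNA against pre-gRNA (0.154%) and against syn-gRNA (0.144%), gRNA against pre-gRNA (0.178%) and against syn-gRNA (0.223%), and pre-gRNA against syn-gRNA (0.144%). When letters were added to that model within each setup, 33 of 76 genes had an unadjusted p under 0.05 for gRNA against pre-gRNA (9.12% of all genes) and 14 for gRNA against syn-gRNA (2.88% of all genes), each with the higher value in gRNA. For agoshRNA against gRNA and against pre-gRNA it was 1 each (0.744% and 5.29% of all genes), and for agoshRNA against syn-gRNA and pre-gRNA against syn-gRNA it was 0 (1.87% and 0.55%). None was called in that fit (0.0% of all genes in each pair), and the smallest adjusted p was 0.53, for gRNA against pre-gRNA. Each setup enters 3 of the 6 pairs, so the pairs share libraries.

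The NTC groups show how far the genes differ between setups without any KD, where setup, delivery and processing cannot be told apart. Of 76 genes tested in each of the 6 pairs, DESeq2 called 1, in 1 pair. This was ATP5J2LP in agoshRNA against syn-gRNA NTC, where 1.84% of all genes were called. It had 0, 1 and 0 counts in agoshRNA NTC and 7, 14 and 10 counts in syn-gRNA NTC. The minimum of 10 counts was met in 3 libraries only, syn-gRNA KD B, NTC B and NTC C. The gene thus entered the test through the setup in which it was high, so its calls against syn-gRNA are in part set by the filter. With 1 against 31 counts the ratio was 29 (95% exact interval 4.84 to 1183, counting error only), and the fitted log2 difference was -4.79 (SE 1.35, adjusted p = 0.0276 in DESeq2). Reads of this pseudogene may stem from its parent gene ATP5J2, which held 2057 to 4652 counts. It was not called with agoshRNA NTC A or C, or syn-gRNA NTC B or C, left out. edgeR called 0 in each pair, and between the KD groups of these setups DESeq2 called 0 too (3.14% of all genes). In the other 5 pairs of NTC groups 0 respiratory chain genes were called, where 0.0496% (agoshRNA and gRNA), 0.0347% (agoshRNA and pre-gRNA), 0.0% (gRNA and pre-gRNA), 1.32% (gRNA and syn-gRNA) and 3.25% (pre-gRNA and syn-gRNA) of all genes were. At an unadjusted p under 0.05 there were 8 for gRNA against syn-gRNA (11.8% of all genes), 3 for pre-gRNA against syn-gRNA (17.8%), 1 each for agoshRNA against gRNA (1.83%) and against syn-gRNA (12.4%), and 0 for agoshRNA against pre-gRNA (2.81%) and gRNA against pre-gRNA (0.516%).

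As medians, gRNA NTC was the lowest of the 4 controls. It was lower than agoshRNA NTC in 72 of 76 genes (median log2 difference 0.25 in favour of agoshRNA), lower than pre-gRNA NTC in 70 of 76 (median -0.30) and lower than syn-gRNA NTC in 64 of 76 (median -0.31), while the medians over all genes were -0.01, 0.02 and 0.02. Genes whose every library lay below every library of the other group were fewer: 0 against pre-gRNA NTC (0.897% of all genes) and 9 against syn-gRNA NTC (8.47%). In the other direction, every gRNA NTC library was above every library of the other group for 0 genes against pre-gRNA NTC (3.0% of all genes) and 4 against syn-gRNA NTC (21.3%). Every agoshRNA NTC library was above every gRNA NTC library for 8 genes (1.37% of all genes) and below for 1 (4.65%). The low medians of gRNA NTC leaned in part on its library C. Over these genes, the median deviation from the gene's mean log2 CPM was 0.054, 0.0079 and -0.379 in gRNA NTC A, B and C. In pre-gRNA NTC it was 0.038, 0.325 and -0.222, so the gap to that group leaned on pre-gRNA NTC B as well. These genes took 1.11, 1.1 and 0.864% of the counts in gRNA NTC A, B and C. The shares were 1.15, 1.12 and 1.06% in agoshRNA NTC, 1.11, 1.46 and 0.949% in pre-gRNA NTC and 1.03, 1.18 and 1.25% in syn-gRNA NTC. The KD groups of gRNA and pre-gRNA differed little, with a median of 0.03, against -0.30 between their NTC groups. The same gRNA NTC libraries are the base of the KD comparison of that setup, so the 2 results are not separate evidence.

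Neither the NTC groups nor the KD groups gave a called gene between gRNA and syn-gRNA or between pre-gRNA and syn-gRNA (for the KD groups, 1.58% and 2.52% of all genes were called). With KD and NTC averaged, a few genes were called. This average counts 6 libraries per setup as independent, although KD and NTC libraries of a letter deviated together, so its p-values may be too small. COX7B (hg19 chromosome X, 77154935 to 77162870, plus strand), a small complex IV subunit, stood at 212, 280 and 313 CPM in syn-gRNA NTC and 247, 270 and 302 CPM in syn-gRNA KD. In gRNA NTC it stood at 182, 196 and 150 CPM and in gRNA KD at 186, 208 and 153 CPM. Every syn-gRNA library was above every gRNA library. Averaged over both arms, DESeq2 gave COX7B a log2 difference of -0.69 (SE 0.21, adjusted p = 0.0189) for gRNA against syn-gRNA and -0.74 (SE 0.21, adjusted p = 0.00736) for pre-gRNA against syn-gRNA. ATP5E, the epsilon subunit of ATP synthase, had log2 differences of -0.64 (SE 0.19, adjusted p = 0.0144 in DESeq2) and -0.56 (SE 0.19, adjusted p = 0.0263 in DESeq2) in the same contrasts. NDUFA8, a complex I subunit whose promoter stretch is printed above, went the other way, with 35.1, 28.2 and 34.3 CPM in syn-gRNA NTC and 64.1, 71.7 and 41.2 CPM in pre-gRNA NTC. Its log2 difference over both arms was 0.82 (SE 0.27, adjusted p = 0.0213 in DESeq2) for pre-gRNA against syn-gRNA. In all, 3 genes were called between gRNA and syn-gRNA (10.9% of all genes) and 4 between pre-gRNA and syn-gRNA (17.9% of all genes), which as shares of 76 lie below the background. The pseudogene ATP5J2LP, which passed the filter only through syn-gRNA libraries, was among them in both. It was also the 1 gene called between agoshRNA and syn-gRNA (13.2% of all genes). The other 3 pairs gave 0 (0.302% of all genes for agoshRNA and gRNA, 0.322% for agoshRNA and pre-gRNA, 0.0% for gRNA and pre-gRNA). COX7B, ATP5E and NDUFA8 were not called between NTC groups.

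Libraries of the same group differed widely. The 82 genes took 0.864% of the counts in gRNA NTC C and 1.46% in pre-gRNA NTC B, a ratio of 1.68 between the lowest and the highest library. The ratio was 2.02 for complex IV, 1.72 for complex I, 1.63 for complex V and 1.39 for complex III. In gRNA KD the share was 1.33, 1.11 and 0.905% in letters A, B and C, and in gRNA NTC it was 1.11, 1.1 and 0.864%. In pre-gRNA KD it was 1.02, 1.37 and 0.895%, and in NTC 1.11, 1.46 and 0.949%. The agoshRNA libraries lay between 0.989 and 1.2% and the syn-gRNA libraries between 1.03 and 1.25%. In every setup the ranges of KD and NTC overlapped. The median SD of log2 CPM over the 24 libraries was 0.30 for 73 genes of at least 10 CPM and 0.45 for all 10923 such genes.

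**Figure D2:**
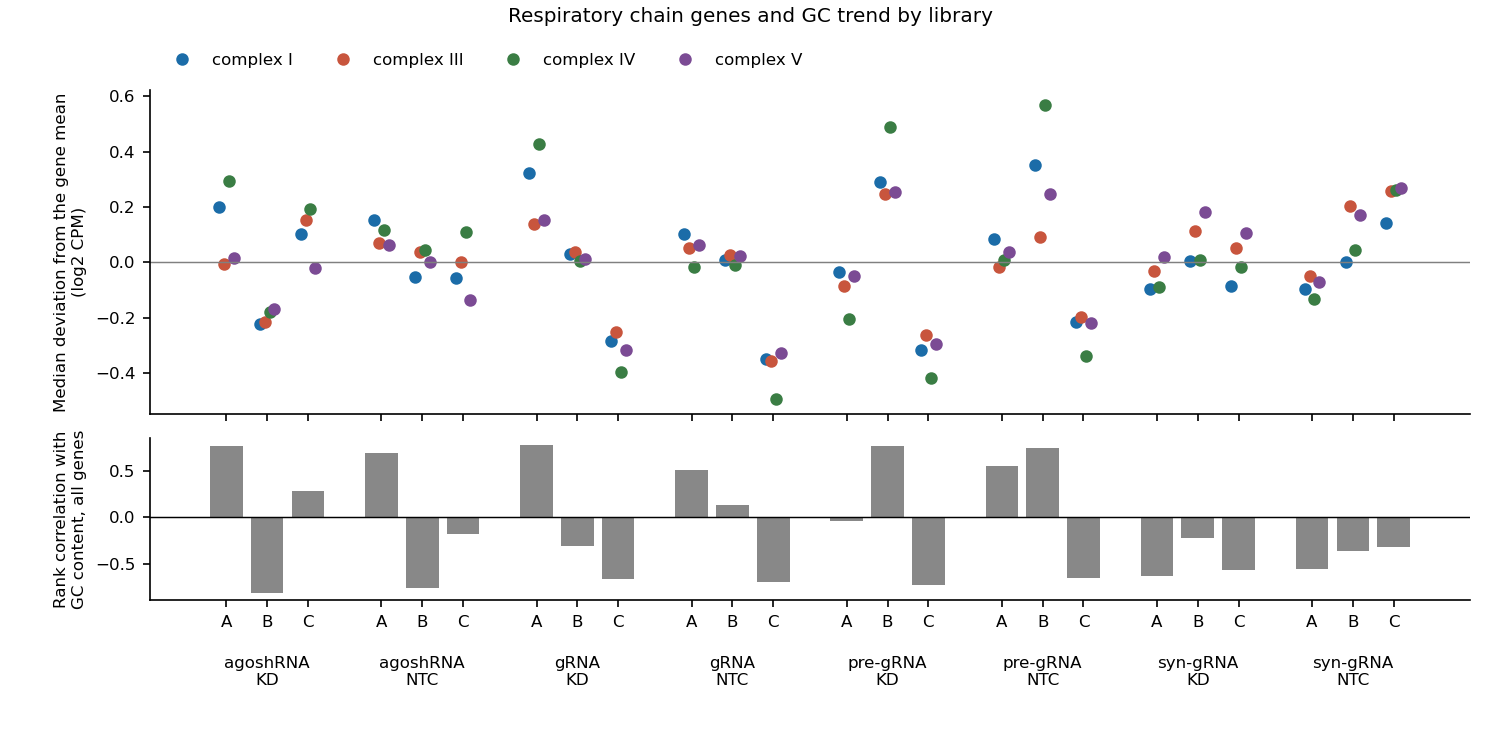
Upper panel: for each library, the median over the genes of a complex of the deviation from the gene's mean log2 CPM. Lower panel: Spearman correlation across all genes between transcript GC content and the deviation from the gene mean. The 4 complexes mostly move together, from a median of -0.38 over all these genes in gRNA NTC C to 0.33 in pre-gRNA NTC B, and the libraries with high medians mostly have a positive GC correlation.

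Most transcripts of the respiratory chain moved together across libraries. Each gene was compared with the median deviation of the other genes over the 24 libraries, which share groups, letters and library composition, so the correlations are descriptions. No share over all genes stands beside the counts that follow, so they do not set the respiratory chain genes apart. Of 76 genes, 36 had r of at least 0.8, among them NDUFA2 (0.97), COX6A1 (0.97), COX6B1 (0.96) and NDUFS3 (0.95). In complex IV 7 of 12 reached this value, in complex I 17 of 37, in complex III 4 of 9 and in complex V 8 of 18. The genes most like the whole thus included structural subunits of complex IV and both accessory and core subunits of complex I.

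Against them, 13 genes had r below 0. NDUFS1 had r = -0.90, NDUFA5 -0.71, UQCRC2 (core protein 2 of complex III) -0.70, ATP5F1 (subunit b of the ATP synthase stalk) -0.56 and NDUFV2 (a core complex I subunit) -0.52, and ATP5S, no chain subunit, had -0.70. NDUFB5, NDUFS4, ATP5C1, UQCRB, ATP5O, ATP5H and NDUFA12 lay between -0.46 and -0.04. No complex IV gene was among them. Within groups, after the mean of each group was taken away, again 13 genes had r below 0.

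Partners in 1 complex could therefore run in opposite directions. UQCRC1 (hg19 chromosome 3, 48636435 to 48648409, minus strand) and UQCRC2 (chromosome 16, 21963981 to 21994981, plus strand) encode the 2 core proteins of complex III, which are present in it in equal number. UQCRC1 stood at 317, 193 and 313 CPM in agoshRNA KD, 280, 228 and 234 in agoshRNA NTC, 349, 236 and 203 in gRNA KD and 254, 254 and 184 in gRNA NTC. It stood at 204, 381 and 187 CPM in pre-gRNA KD, 260, 415 and 209 in pre-gRNA NTC, 198, 236 and 200 in syn-gRNA KD and 193, 216 and 218 in syn-gRNA NTC. UQCRC2 stood at 68.3, 292 and 182 CPM in agoshRNA KD, 102, 310 and 224 in agoshRNA NTC, 82.0, 212 and 227 in gRNA KD and 137, 199.6 and 231 in gRNA NTC. Libraries high in UQCRC1, such as agoshRNA KD A, gRNA KD A and pre-gRNA KD B, were thus low in UQCRC2. UQCRC2 stood at 164, 94.2 and 232 CPM in pre-gRNA KD, 133, 120.0 and 219 in pre-gRNA NTC, 233, 213 and 226 in syn-gRNA KD and 220.5, 211 and 201 in syn-gRNA NTC. The count ratio of UQCRC1 to UQCRC2 ran from 0.663 in agoshRNA KD B to 4.64 in agoshRNA KD A, a span of 7.0 between libraries of the same group. The correlation of log2 CPM was r = -0.79 and Spearman's rho -0.83 over the 24 libraries, r = -0.79 without the 2 libraries farthest from the median of UQCRC1, and r = -0.78 within groups.

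In complex I, NDUFV1 and NDUFV2, core subunits of the NADH-binding arm, gave a ratio of NDUFV1 to NDUFV2 from 2.84 in agoshRNA KD B to 9.06 in pre-gRNA NTC B. The correlation of log2 CPM was r = -0.71 over the 24 libraries (rho -0.70), -0.64 without the 2 libraries farthest from the median of NDUFV1, and -0.75 within groups. NDUFS1 (hg19 chromosome 2, 206979541 to 207024327, minus strand) was at 45.3 CPM in pre-gRNA KD B and 48.6 in pre-gRNA NTC B, where most other genes were high, and at 144 in gRNA NTC C, where most were low. In complex V the ratio of ATP5D to ATP5F1 ran from 0.177 in agoshRNA KD B to 1.37 in agoshRNA KD A. ATP5B to ATP5C1 likewise ran from 3.31 in agoshRNA KD B to 11.6 in agoshRNA KD A (r = -0.49). Some other partners kept closer ratios. ATP5B to ATP5A1 lay between 1.53 and 2.59 (r = 0.83), and COX5B to COX5A lay between 0.650 and 1.08 (r = 0.88).

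**Figure D3:**
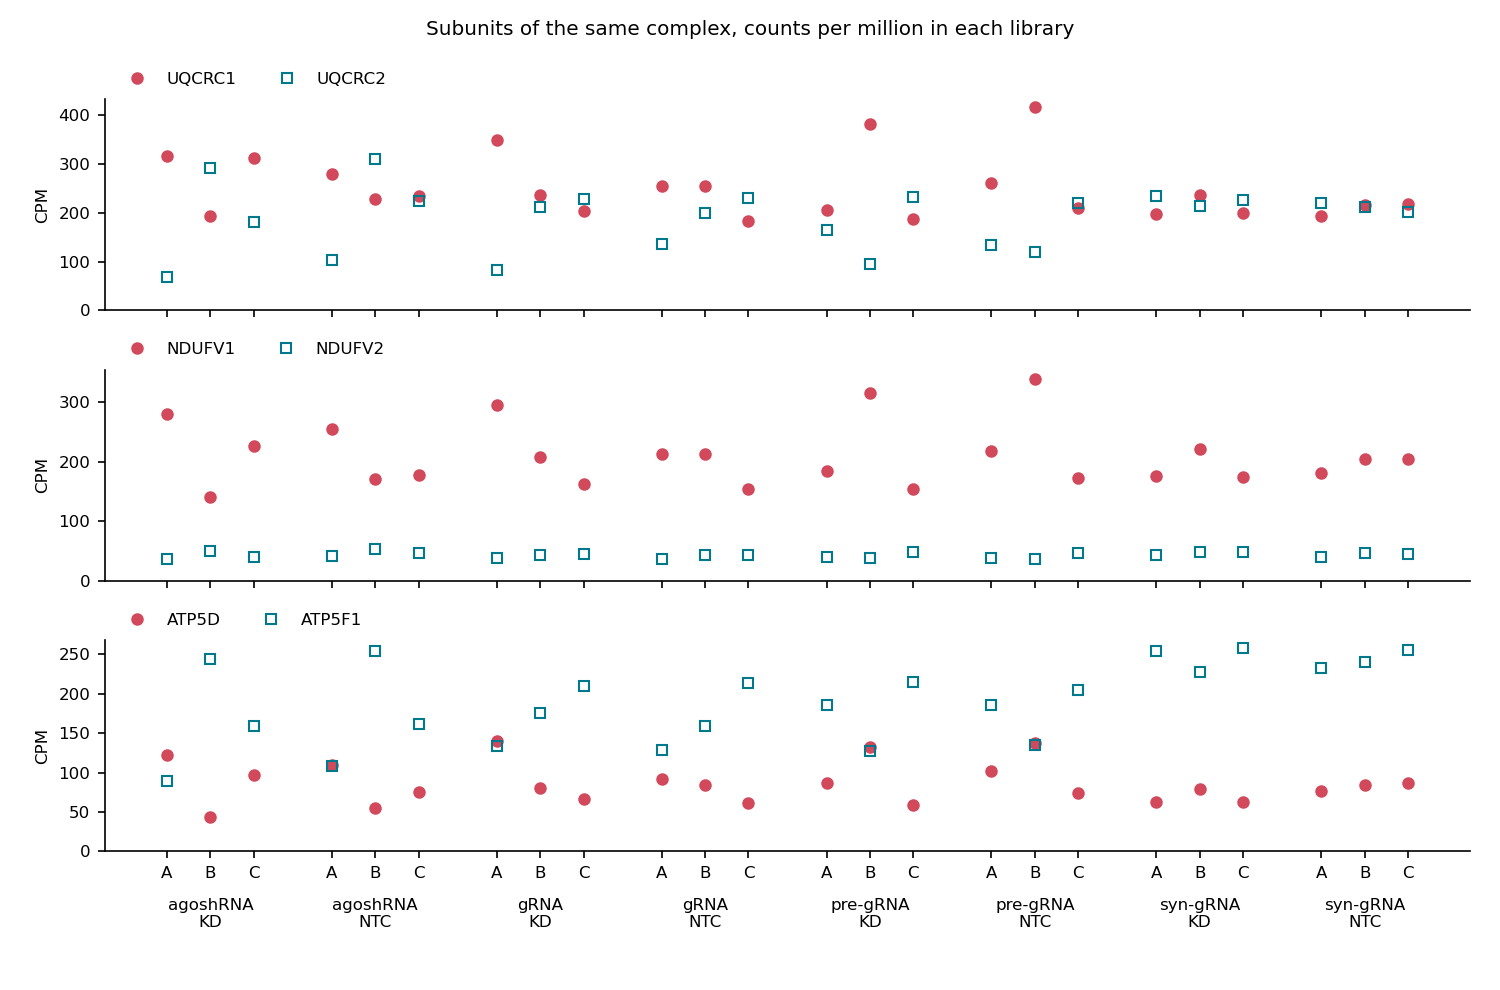
CPM of UQCRC1 and UQCRC2, NDUFV1 and NDUFV2, and ATP5D and ATP5F1 in each of the 24 libraries. UQCRC1 lies between 184 and 415 CPM and UQCRC2 between 68.3 and 310 CPM, and the libraries highest in the former are lowest in the latter, while the syn-gRNA libraries show near-equal values of both.

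The genes that moved apart differed in base composition. The 13 genes with r below 0 had a median transcript GC content of 42.8% (35.0 to 50%), and the 36 with r of at least 0.8 a median of 54.3% (41.0 to 69.6%). UQCRC1 has 59.5% and UQCRC2 45.5%, NDUFV1 59.4% and NDUFV2 41.3%. Across the 76 genes, which share libraries and are not independent, r with the other genes correlated with GC content with Pearson r 0.56 and Spearman rho 0.61. Libraries themselves differed in this respect. Over 15056 genes with at least 10 counts in every library, the Spearman correlation between GC content and the deviation from the gene mean ran from -0.82 in agoshRNA KD B to 0.78 in gRNA KD A. Over the 24 libraries, the median deviation of the respiratory chain genes correlated with this value with Pearson r 0.79.

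When the trend of each library over GC content was removed, a step chosen after seeing the data, 3 genes had r below 0 in place of 13. These were NDUFS1 (-0.33), COX6B2 (-0.34) and UQCRC2, then at 0.00. The correlation of UQCRC1 with UQCRC2 became 0.59, and the span of their ratio went from 7.0 to 2.29. That of NDUFV1 to NDUFV2 went from 3.19 to 2.59, with a correlation of 0.41, and that of ATP5D to ATP5F1 from 7.77 to 1.68. The span of COX5B to COX5A widened from 1.67 to 2.15, with r going from 0.88 to 0.80, and that of ATP5B to ATP5A1 was 1.69 before and after. The range of the library medians did not shrink: it was 0.70 on the log2 scale before and 1.08 after the removal.

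**Figure D4:**
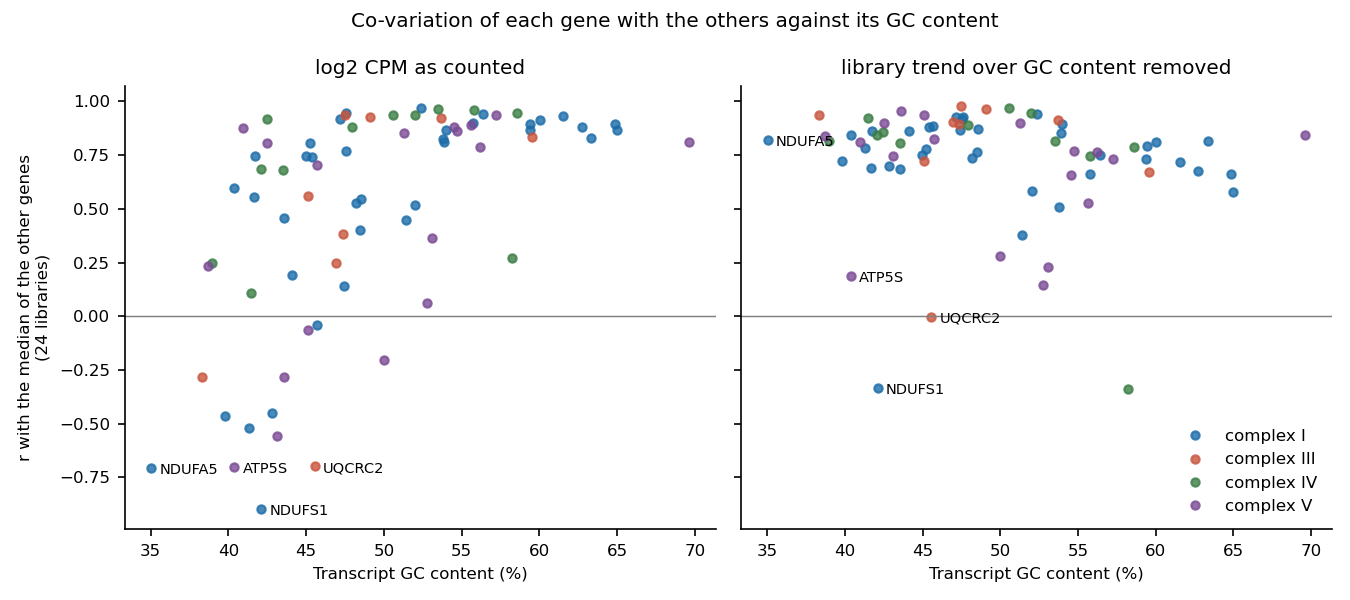
Correlation of each of the 76 genes with the median of the other genes over 24 libraries, against the GC content of its transcript, before (left) and after (right) removal of each library's trend over GC content. Before, 13 genes lie below 0, all at a GC content of 50% or less; after, 3 do.

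The other genes of the pathway were read from lists of their roles. In complex II, whose 4 subunits are all nuclear-encoded, SDHA, SDHB, SDHC and SDHD were at 228 ± 59.2, 111 ± 7.27, 116 ± 16.2 and 65.6 ± 18.8 CPM (SD, n = 24), and 0 of 4 were called in each KD setup. The median fold changes were -0.08, 0.05, -0.05 and 0.02 in the 4 setups. Of 7 subunits and partners outside the name pattern, such as CYC1 (cytochrome c1) and CYCS (cytochrome c), 0 were called, and 7 of 7 had values above 0 in the gRNA setup (median 0.17). The 13 mitochondrially encoded messenger RNAs took 1.26 to 3.56% of the counts. None was called in any KD setup. In the pre-gRNA setup 13 of 13 lay above 0 (median 0.19) where the nuclear genes lay below, and with the letter as a term 7 of 13 were higher at an unadjusted p under 0.05 (5.4% of all genes passed in that fit, in either direction). In the syn-gRNA setup 2 of 13 lay above 0 (median -0.10), and with the letter 3 of 13 were lower at that p (1.3% of all genes). Against syn-gRNA NTC they were higher in 13, 12 and 12 of 13 in agoshRNA, gRNA and pre-gRNA NTC (medians 0.49, 0.48 and 0.43). In each of these contrasts they gave 0 called, where 1.84%, 1.32% and 3.25% of all genes were called. Between the KD groups they were higher than in syn-gRNA in 13 of 13 in each of these setups (medians 0.41, 0.67 and 0.61). Of all genes, 3.14%, 1.58% and 2.52% were called in these contrasts of agoshRNA, gRNA and pre-gRNA. MT-CO2 and MT-ND3 were called in all 3 of these contrasts, and MT-CYB in those of gRNA and pre-gRNA. By share of counts, the agoshRNA libraries did not all stand above syn-gRNA. Letter B held 1.42% in agoshRNA KD and 1.26% in NTC, below the 1.52 to 2.08% of the syn-gRNA libraries. Letters A and C of agoshRNA held 2.59 to 3.56%. The mitochondrially encoded messenger RNAs are polyadenylated only in part, and the share recovered by poly(A) selection was not tested.

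Of 38 assembly factors, which build the complexes but are not part of them, 0 were called in each KD setup, with medians of -0.05, 0.05, -0.06 and 0.01. Between NTC groups, COX18 was called higher in agoshRNA and in gRNA than in syn-gRNA, and COA7 higher in gRNA than in syn-gRNA. That is 1 of 38 for agoshRNA (1.84% of all genes) and 2 of 38 for gRNA (1.32% of all genes). Between the KD groups of the same pairs 0 of 38 were called (3.14% and 1.58% of all genes). COA7 alone was called higher in pre-gRNA KD than in syn-gRNA KD (2.52% of all genes). Of 10 regulators, 0 were called in each KD setup. GABPA stood at 94.6 ± 33.6 CPM, NRF1 at 20.9 ± 4.72 and YY1 at 149 ± 39.4, while PPARGC1A, a coactivator of mitochondrial biogenesis, was low at 1.37 ± 1.02 CPM (SD, n = 24).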

How the data were processed

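Raw read counts per gene, deposited by the authors, were used for 24 libraries in 8 groups of 3. Per the submitters' processing notes, Trim Galore, STAR 2.7.3a on hg19, featureCounts and DESeq2 were used, and per the labels' protocols the libraries were poly(A)-selected and non-stranded. Counting settings and annotation release are not given in the sources used here. The counts were identical in the 4 deposited tables. Each table also holds 24 normalized columns, which were left aside. The authors' log2 fold changes and p-values, deposited per setup, are quoted only where named. Exon length is the deposited value.

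KD was tested against NTC on the 6 libraries of a setup with the Wald test of DESeq2 1.42.0 (R 4.3.3), over all genes that reached 10 counts in 3 or more libraries. NTC groups and KD effects were compared in 1 model of the 24 libraries together, fitted by group. Adjusted p-values (Benjamini-Hochberg, all genes) under 0.05 were called. DESeq2 is named in the series' own design text, and edgeR 4.0.16 was an alternative, as were TMM factors, other filters, other sets of libraries, the column letter as a term and leaving out each library. CPM are counts per 1000000 counts of the library, and logs used a pseudocount of 0.5. Depth, 10994974 to 16233777 counts, limits genes with few counts, and at 3 against 3 libraries an exact permutation test cannot give a p under 0.1, so none was made. GC content is that of the longest coding transcript in GENCODE 29, which matched 93.2% of genes and all 82 used here. Trends over GC content were fitted by lowess (span 0.3, statsmodels 0.14.6).

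The column names carry letters and the labels replicate numbers, with no link between them, so columns were matched to groups only. Libraries of the same setup and letter deviated together in all 12 pairs (r over all genes 0.33 to 0.97). The fits by group (KD against NTC, NTC groups, and the difference of KD effects) were tested on simulated counts. These had a fixed dispersion and no shared deviation by letter or GC content. Fits with the letter as a term and averages over both arms were not simulated.

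The values of 1 gene are not reported here, though counts and medians include it. The respiratory chain genes and lists were chosen with earlier results of these data known. Named genes were paralogue pairs, core subunits, the highest and lowest per complex, the smallest p in each direction per setup, genes called between NTC groups, and names that are not subunits; others (COX7B, ATP5E, NDUFA8, ATP5D to ATP5F1, NDUFS7 and the genes that moved apart) were chosen after their values were seen.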

Additional observations from a re-analysis of the deposited data

How the results depend on the processing

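No paired analysis was possible because the columns carry no replicate numbers, as far as pairing by the labels goes. Pairing by column letter was run instead and kept 0 called in each setup. The counts of called genes for KD against NTC and for KD effects between setups were 0 under every alternative run. ATP5J2LP between agoshRNA and syn-gRNA NTC was lost, with 0 called, in edgeR, with at least 10 counts in every library, in the 6 NTC libraries alone and between the KD groups, and ranged from 0 to 1 as libraries were left out (0 without agoshRNA NTC A or C, or syn-gRNA NTC B or C). Between gRNA and syn-gRNA NTC the 6 libraries alone called 1, UQCRB, and the mean over KD and NTC called 3; for pre-gRNA against syn-gRNA that mean called 4. The cause of each was not tested. Leaving out 1 library reversed NDUFS1 in the gRNA setup (0.11 without KD A) and the pre-gRNA setup (range -0.17 to 0.52, -0.17 without KD C and -0.056 without NTC B) and COX7C in the pre-gRNA setup (range -0.43 to 0.094, the latter without NTC B). The pre-gRNA medians ran from -0.47 to 0.24, complex IV from -0.67 to 0.34. With size factors, the highest library held 2.23 times the summed level of the lowest, against 1.68. Depth limits COX6B2 and ATP5J2LP, with 0 to 40 counts.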
